A study of Homo sapiens with 5 samples.

Results

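The genes described are 9 of the 26485 in the count files: the RNA-binding protein genes RBMS1, RBMS2 and RBMS3, the syntenin gene SDCBP, the syndecan genes SDC1, SDC2, SDC3 and SDC4, and PDCD6IP, which encodes ALIX. They were chosen by name, with earlier results of these data known. All 9 passed the filter on low counts, as did 14536 genes in all. Transcripts were counted by 3' end RNA sequencing in SW480, a long-established line of human colorectal cancer cells, in which all libraries came from cells carrying dCas9-KRAB. This is a Cas9 that no longer cuts DNA, joined to the KRAB repressor, and it represses transcription at the site a guide RNA directs it to. The 2 control libraries came from cells given control guides and the 3 knockdown libraries from cells given a guide against AKAP12, with RNA taken 48 hours after seeding. The labels tie no library to a clone or to a separate culture. Sample titles write shControl and shAKAP12 for the same groups, and the protocol's account of guide RNAs was followed.

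RBMS proteins bind single-stranded RNA, and RBMS1 is known to act on the 3' ends of mRNAs and their stability. Syndecans are transmembrane core proteins that carry heparan sulfate chains, through which they hold growth factors and matrix proteins. The short cytoplasmic tail of a syndecan is bound by the PDZ domains of syntenin, syntenin binds ALIX, and ALIX links this assembly to the ESCRT machinery that buds vesicles into endosomes, a route by which exosomes form.

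Total counts ranged from 4935096 to 9311026 per library. The library of control replicate 1 stood apart. Its counts and those of control replicate 2 gave a chi-square per degree of freedom of 103.9, and pairs of knockdown libraries gave 5.30 to 8.67. Against the knockdown libraries, control replicate 1 gave 179.9 to 215.4 and control replicate 2 gave 68.8 to 90.3. By this measure control replicate 2 was closer to every knockdown library than to control replicate 1. Short non-coding RNA genes took 8.65% of the counts of control replicate 1, against 1.73% in control replicate 2 and 0.645% to 0.934% in the knockdown. TERT took 7.43% and 3.54% of control counts and at most 0.249% of knockdown counts. Levels below are CPM, counts normalised to sequencing depth, with TMM scaling factors. In bulk RNA, fewer cells with a transcript and less of it per cell cannot be told apart. The targeted gene, AKAP12, was at 2870 and 1550 CPM in the controls and lower, at 1159, 1063 and 1008 CPM, in every knockdown library. Its log2 fold change was -1.04 (SE 0.31; edgeR adjusted p = 0.0513), and -0.52 without control replicate 1. Of 10 epithelial markers, 8 were read in every library, among them CDH1, VIL1 and CDH17 at no more than 7.59 CPM, while CDX1 had no read in any and KRT20 at most 4. They summed to 1033 to 1542 CPM in controls and 1353 to 1609 CPM in the knockdown, with KRT8 called higher (log2 fold change 1.78, edgeR adjusted p = 0.0195). The markers of other cell types were not at 0 either: all 6 stromal markers summed to 328 to 423 CPM in controls and 412 to 486 CPM in the knockdown, and all 6 blood markers to 90.9 to 109.8 CPM and 73.8 to 90.5 CPM, with CD3D, CD68 and CSF1R called lower. Endothelial markers summed to 47.8 to 71.1 CPM and 45.4 to 57.3 CPM. Their part in the results below was not tested.

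Of the 9 genes, 2 passed the test, SDCBP and PDCD6IP, and both rose in the knockdown. The test was the quasi-likelihood test of edgeR with p-values adjusted over all tested genes at a threshold of 0.05, and it called 22.6% of all tested genes, 11.2% higher and 11.4% lower. The share of called genes among the 9 is thus close to that of all genes. The knockdown and control libraries did not overlap in 4 genes that were higher (RBMS2, SDCBP, SDC4 and PDCD6IP) and 2 that were lower (SDC1 and SDC2), and overlapped in RBMS1, RBMS3 and SDC3. Groups did not overlap in 60.1% of all tested genes, 31.6% higher and 28.5% lower, so non-overlap was common in these libraries.

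RefSeq promoter windows (GRCh38.p14, the assembly that hg38 names) were found for 7 of the 9 genes. The stretches of 150 bases before the start of PDCD6IP, which rose, of SDC4, whose controls differed most, and of RBMS1, whose groups overlapped, are shown as examples of these 3 outcomes. No stretch is shown for a gene that was lower. They are printed on the gene's strand with matches to the searched motifs in capitals.
PDCD6IP, chr3:33798421-33798570, plus strand: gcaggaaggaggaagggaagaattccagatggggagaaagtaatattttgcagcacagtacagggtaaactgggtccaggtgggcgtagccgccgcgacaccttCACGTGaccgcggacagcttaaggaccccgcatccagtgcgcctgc
SDC4, chr20:45348425-45348574, minus strand: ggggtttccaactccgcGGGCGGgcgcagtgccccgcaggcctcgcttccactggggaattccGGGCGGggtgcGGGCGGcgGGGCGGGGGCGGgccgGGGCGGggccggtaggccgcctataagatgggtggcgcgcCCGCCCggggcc
RBMS1, chr2:160493808-160493957, minus strand: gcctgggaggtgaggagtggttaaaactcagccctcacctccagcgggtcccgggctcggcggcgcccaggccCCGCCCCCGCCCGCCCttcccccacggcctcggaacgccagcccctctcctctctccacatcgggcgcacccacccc

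The motifs were the GC box (GGGCGG), the CCAAT box (CCAAT), the TATA box (TATAAA), the cAMP response element (TGACGTCA) and the E-box (CACGTG), searched on both strands. In the full RefSeq windows around the starts, SDC4 held 8 GC boxes, SDC3 held 6, RBMS1 held 4 and PDCD6IP held none. A GC box was present in 44.95% of 35116 promoter windows of that length. PDCD6IP held 1 E-box, a motif found in 7.256% of windows, and RBMS2 held 1 TATA box, found in 11.53%. No cAMP response element was present in the windows of these 7 genes, and 1.848% of all windows held one. These matches describe letters only.

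Syntenin is the adaptor that bridges syndecan tails and ALIX. SDCBP (chromosome 8, 58553169 to 58582860, hg38, plus strand) was at 18.6 and 16.7 CPM in the controls and at 60.3, 47.8 and 49.8 CPM in the knockdown libraries, whose mean was 52.6 ± 6.71 CPM (SD, n = 3). Every knockdown library lay far above both controls, and the controls lay close together. SDCBP rose 2.98-fold (log2 fold change 1.58, SE 0.23, 95% interval 1.04 to 2.11; edgeR adjusted p = 0.0146). Of all tested genes, 7.75% had a larger log2 fold change. The value rested on neither control, being 1.66 without control replicate 1 and 1.50 without control replicate 2. With GC offsets the log2 fold change was 1.27 (edgeR adjusted p = 0.0241).

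ALIX, the ESCRT-associated protein, showed the second rise. PDCD6IP (chromosome 3, 33798571 to 33869707, plus strand) was at 26.9 and 25.2 CPM in the controls and at 52.3, 50.9 and 61.2 CPM in the knockdown, with a knockdown mean of 54.8 ± 5.60 CPM (SD, n = 3). The groups stood apart, and the controls differed by only 1.07-fold. PDCD6IP rose 2.10-fold (log2 fold change 1.07, SE 0.21, 95% interval 0.58 to 1.57; edgeR adjusted p = 0.0217). Without control replicate 1 it was 1.12 and without control replicate 2 it was 1.02. With GC offsets the log2 fold change was 0.77 (edgeR adjusted p = 0.0440). The controls of SDCBP and PDCD6IP were closer to each other than those of most genes: 86.6% and 91.3% of the genes with at least 3 reads in both controls had a larger gap between them, and the median gap was 1.54-fold.

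Both calls were lost when any one knockdown library was left out, a setting in which edgeR called 0 genes in all (3774 to 4109 genes had an unadjusted p under 0.05). The edgeR adjusted p then ran from 0.0895 to 0.127 for SDCBP and from 0.10 to 0.134 for PDCD6IP. Within a library, where no scaling is needed, there were 0.691 and 0.664 SDCBP reads per PDCD6IP read in control libraries and 1.15, 0.939 and 0.813 in the knockdown. The ratio was above both controls in all 3 knockdown libraries, but it reuses the SDCBP and PDCD6IP counts already tested. Among related sequences, the syntenin-2 gene SDCBP2 had 4 and 44 control reads and 40, 30 and 22 knockdown reads, and the pseudogene PDCD6IPP2 had at most 5 reads in any library.

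**Figure D1:**
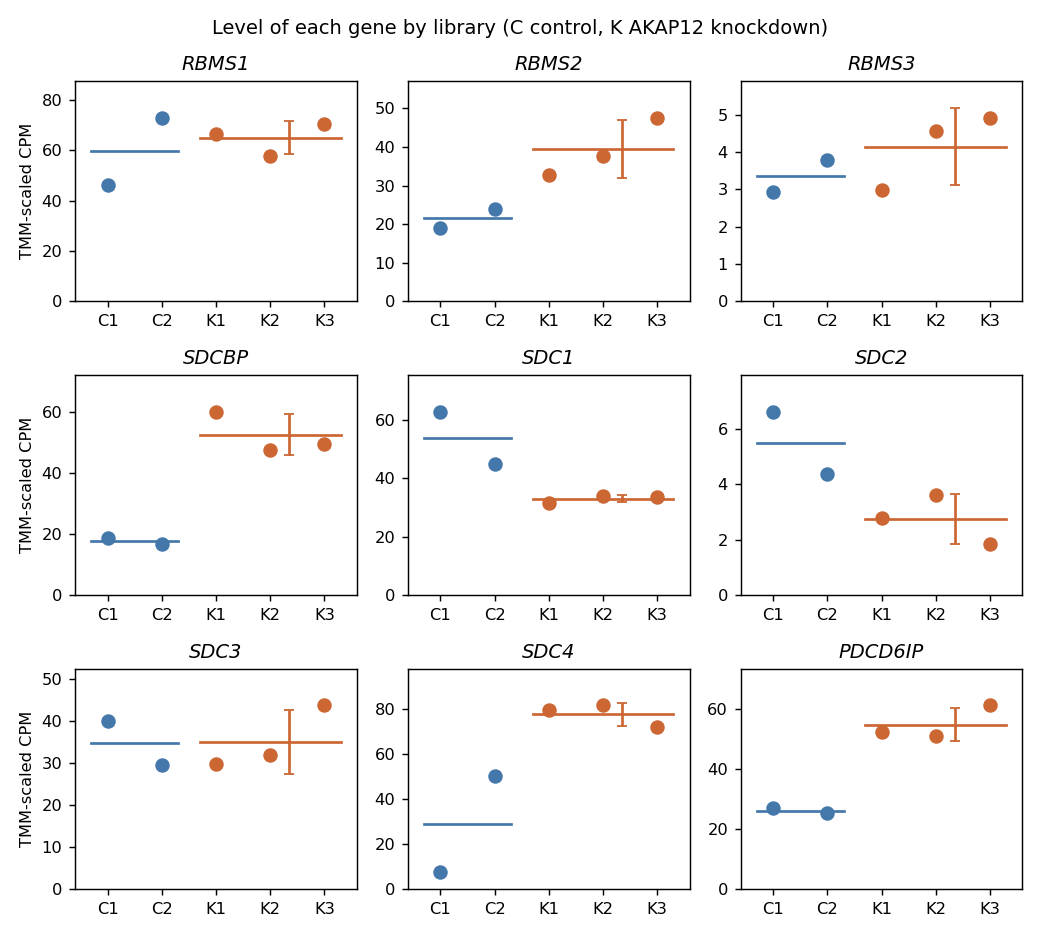
Level of each of the 9 genes in TMM-scaled CPM (vertical axes from 0) in the 2 control libraries (C1, C2, blue) and the 3 AKAP12 knockdown libraries (K1 to K3, orange); horizontal lines are group means and bars the SD of the knockdown libraries. SDCBP and PDCD6IP show close controls well below the knockdown, while the SDC4 controls lie apart at 7.59 and 50.2 CPM.

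The syndecan genes did not move as one. SDC1 encodes the main syndecan of epithelial cells (chromosome 2, 20200797 to 20225433, minus strand). It was at 63.0 and 45.1 CPM in the controls and at 31.7, 34.0 and 33.6 CPM in the knockdown, so all knockdown libraries were lower and differed little from each other. The log2 fold change of -0.70 (SE 0.22, 95% interval -1.22 to -0.18) missed the threshold, with an edgeR adjusted p of 0.0598. It was past the threshold by DESeq2 (adjusted p = 0.0426), which called 30.7% of genes (15% higher and 15.7% lower), and with the stricter filter (edgeR adjusted p = 0.0494). The other fits to all 5 libraries missed the threshold. Their adjusted p ran from 0.0583 (edgeR, without TERT and short RNA genes) to 0.321 (edgeR, with a replicate block).

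SDC4, a widely expressed syndecan found in focal adhesions (chromosome 20, 45325289 to 45348424, minus strand), was at 7.59 and 50.2 CPM in the controls and at 79.5, 81.8 and 72.0 CPM in the knockdown. The knockdown libraries were close together and above both controls, but the controls differed by 6.62-fold, from 31 reads in control replicate 1 to 438 in control replicate 2. Only 2.13% of genes with at least 3 reads in both controls had a larger gap. The log2 fold change was 1.40 (SE 0.65, 95% interval -0.15 to 2.94) and the edgeR adjusted p was 0.156. It was 0.63 without control replicate 1 and 3.35 without control replicate 2.

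SDC3 (chromosome 1, 30869466 to 30908633, minus strand), best known from the nervous system, was at 39.9 and 29.4 CPM in the controls and at 29.6, 31.7 and 43.6 CPM in the knockdown. The groups overlapped, and the log2 fold change was 0.02 (95% interval -0.61 to 0.65, edgeR adjusted p = 0.964). Its sign changed with the scaling, to -0.03 with RLE factors, while library size alone gave 0.25. SDC2 (chromosome 8, 96493654 to 96611809, plus strand), a syndecan typical of mesenchymal cells, had 15 to 38 reads per library. It was at 6.61 and 4.36 CPM in the controls and at 2.76, 3.62 and 1.84 CPM in the knockdown. All knockdown libraries were lower, with a log2 fold change of -0.98 (95% interval -2.02 to 0.07) and an edgeR adjusted p of 0.146.

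Shares of the syndecan reads do not depend on scaling between libraries, and those of SDC4 and SDC1 did not overlap between the groups. SDC4 held 6.49% of 478 syndecan reads in control replicate 1 (exact 95% binomial interval 4.45% to 9.08%) and 38.9% of 1125 in control replicate 2 (36.1% to 41.9%). In the knockdown it held 55.4%, 54.1% and 47.7%, and the lowest of these had an interval of 44.9% to 50.5%. SDC1 held 53.8% and 34.9% in control libraries and 22.1%, 22.5% and 22.2% in the knockdown. These intervals cover counting error only.

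The mean share of SDC4 was 29.7 percentage points higher in the knockdown and that of SDC1 was 22.1 points lower (-22.1, knockdown minus control). The shares of a family make up a whole, so a higher SDC4 share lowers the others. These shifts are therefore not separate results. The exact two-sided permutation test gave p = 0.1 for each, the smallest that 2 libraries against 3 allow, and 0.175 after Benjamini-Hochberg adjustment over the 7 shares tested. Without control replicate 1 the differences were 13.5 and -12.7 points, and without control replicate 2 they were 45.9 and -31.5 points. The share of SDC2 was 5.65% and 3.38% in control libraries and 1.92%, 2.39% and 1.2% in the knockdown (exact permutation p = 0.1). The share of SDC3 overlapped between the groups (exact permutation p = 0.5).

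**Figure D2:**
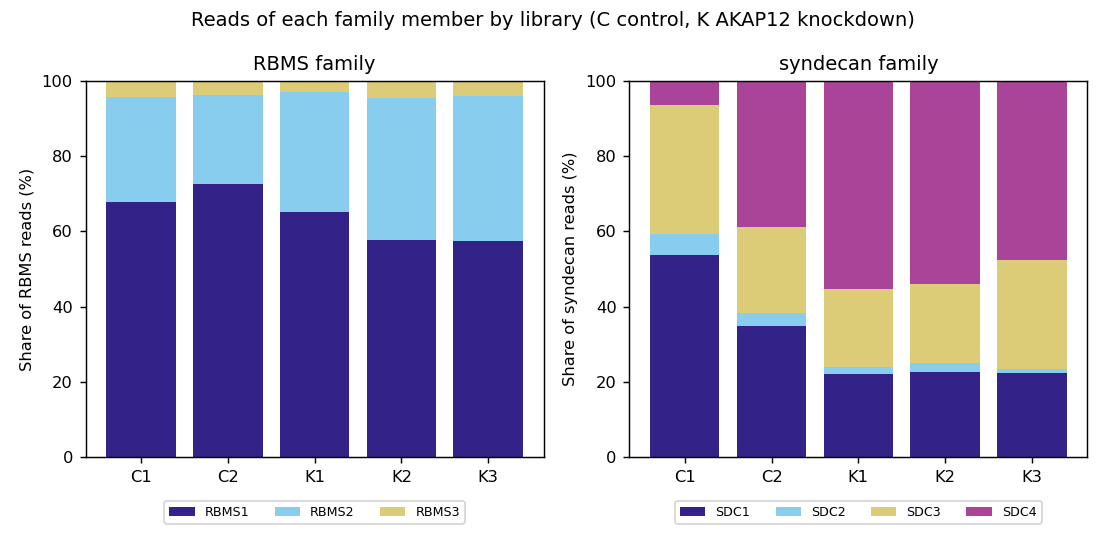
Share of reads in percent (vertical axes) taken by each RBMS gene (left) and each syndecan gene (right) in the control (C1, C2) and AKAP12 knockdown (K1 to K3) libraries, as stacked bars. SDC4 takes 6.49% and 38.9% of syndecan reads in the controls and 47.7% to 55.4% in the knockdown.

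Syntenin reads were more numerous relative to the sum of the 4 syndecans, a ratio that reuses the SDCBP counts already tested. There were 15.9 and 13.0 SDCBP reads per 100 syndecan reads in control libraries and 42.0, 31.6 and 33.0 in the knockdown. All knockdown libraries were above both controls.

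RBMS1, known as a regulator of mRNA stability in colon cancer cells, showed no difference past the spread between libraries. RBMS1 (chromosome 2, 160272151 to 160493807, minus strand) was at 46.3 and 72.9 CPM in the controls and at 66.6, 57.7 and 70.6 CPM in the knockdown. The knockdown values lay between the controls, with control replicate 1 the lowest library. The log2 fold change was 0.12 (SE 0.25, 95% interval -0.48 to 0.72; edgeR adjusted p = 0.748), and the interval leaves room for changes of either sign. It was -0.16 without control replicate 1, 0.48 without control replicate 2 and -0.15 with GC offsets.

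RBMS2, its close paralog (chromosome 12, 56521825 to 56596196, plus strand), was at 19.1 and 23.9 CPM in the controls and at 32.9, 37.8 and 47.6 CPM in the knockdown. All knockdown libraries were higher. The log2 fold change of 0.87 (SE 0.26, 95% interval 0.26 to 1.47) missed the threshold, with an edgeR adjusted p of 0.0510, and passed it by DESeq2 (adjusted p = 0.0297). It also passed with library size only, without a filter and with the stricter filter (edgeR adjusted p = 0.0494, 0.0496 and 0.0477). The other fits to all 5 libraries missed the threshold. Their adjusted p ran from 0.0503 (edgeR, without TERT and short RNA genes) to 0.306 (edgeR, with a replicate block). The last 601 bases of RBMS2 (chromosome 12, 56595596 to 56596196) overlap the 3' end of BAZ2A, a chromatin remodelling gene on the minus strand, and the counting used no strand option and counted a read for each gene it overlapped. Since the assay reads 3' ends, reads of the overlap cannot be told apart. BAZ2A, named here only for this overlap, was at 401 and 264 CPM in the controls and 176, 181 and 202 CPM in the knockdown. Its log2 fold change was -0.84 (edgeR adjusted p = 0.0455, SE 0.23), opposite in sign to that of RBMS2.

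RBMS3, the third paralog, had 12 to 40 reads per library. It was at 2.94 and 3.78 CPM in the controls and at 2.97, 4.55 and 4.92 CPM in the knockdown, and the groups overlapped. Its log2 fold change of 0.28 (95% interval -0.70 to 1.25, edgeR adjusted p = 0.645) was -0.10 with GC offsets. The interval holds differences of either sign. As a share of RBMS reads, RBMS1 held 67.7% and 72.5% in control libraries and 65.0%, 57.7% and 57.3% in the knockdown, and RBMS2 held 28.0% and 23.7% of control reads against 32.1%, 37.8% and 38.7%. The difference in the mean RBMS2 share was 10.3 points (exact permutation p = 0.1, adjusted 0.175), a value that includes any reads from the overlap with BAZ2A. A higher RBMS2 share lowers the shares of the other RBMS genes, so these shifts are not separate results either.

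**Figure D3:**
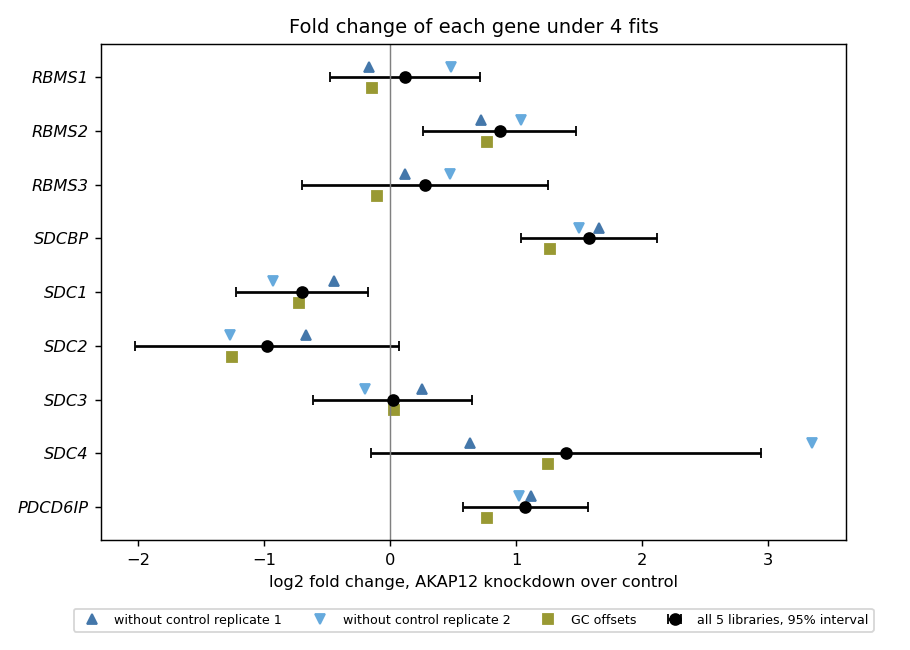
Log2 fold change of each gene, AKAP12 knockdown over control (horizontal axis), in the fit to all 5 libraries with its 95% interval (black), without either control (triangles) and with GC offsets (squares). SDCBP and PDCD6IP stay near 1.58 and 1.07 whichever control is left out, whereas SDC4 runs from 0.63 to 3.35. GC offsets put SDCBP at 1.27 and PDCD6IP at 0.77.

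The order of levels between genes depends on whether CPM are divided by annotated exon length, which in a 3' end assay lowers long genes. In undivided CPM, the knockdown means were ordered SDC4 (77.8), RBMS1 (65.0), PDCD6IP (54.8), SDCBP (52.6), RBMS2 (39.4), SDC3 (34.99), SDC1 (33.1), RBMS3 (4.15) and SDC2 (2.74). PDCD6IP and SDCBP differed by less than their SDs of 5.60 and 6.71 CPM, and RBMS2 and SDC3 by less than theirs of 7.49 and 7.57 CPM. SDC3 and SDC1 also differed by less than the SD of SDC3. In CPM per kb, the knockdown means were ordered SDC4 (29.8), SDCBP (24.3), RBMS1 (15.2), SDC1 (9.82), PDCD6IP (8.25), SDC3 (6.83), RBMS2 (4.64), SDC2 (0.787) and RBMS3 (0.496). In control replicate 2 SDC4 was first at 19.2 and RBMS1 second at 17.0 CPM per kb, while SDC1 was at 13.4 and SDCBP at 7.73. In undivided CPM that order was reversed in this library, with RBMS1 first at 72.9 and SDC4 second at 50.2. In control replicate 1 SDC1 led at 18.7 and SDC4 was at 2.91 CPM per kb.

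The genes whose profile over the 5 libraries was nearest to that of SDCBP, by the root mean square difference of centred log2 CPM, were CXXC5 (0.10), FH, the fumarate hydratase gene (0.11), and UBE2B, a ubiquitin-conjugating enzyme gene (0.12), among 7632 candidates. PDCD6IP was the nearest of the other 8 genes at 0.29, and 177 candidates lay closer. For RBMS1 the nearest were R3HCC1 (0.05), ELOF1, a transcription elongation factor gene (0.05), and the kinesin gene KIF15 (0.06). These are descriptions of 5 libraries that share the gap between the controls.

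The authors' deposited table, whose fold changes correlate with the fitted ones at r = 0.999 across 14536 genes and so run knockdown over control, gave SDCBP a log2 fold change of 1.56 (adjusted p = 8.6e-06) and PDCD6IP 1.06 (adjusted p = 0.00178). In the authors' deposited table RBMS2 also passed 0.05 (0.85, adjusted p = 0.0380). That made 3 of the 9 genes, where the authors' deposited table called 25.3% of the genes given an adjusted p. SDC1 and SDC4 had adjusted p values of 0.0639 and 0.0691 in the authors' deposited table.

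Genes of the surrounding pathways were taken from 4 lists written from textbook knowledge, with earlier results of these data known. By edgeR, 22.6% of all tested genes were called, 11.2% higher and 11.4% lower. The share called in either direction was close to 22.6% in each list. Of 39 tested genes of ESCRT and exosome release, 5 rose and 4 fell, with a median log2 fold change of 0.18 against 0.04 over all tested genes. The list's median was 0.11 without control replicate 1 and 0.30 without control replicate 2, where that of all genes was 0.02 and 0.12. CHMP7, an ESCRT-III-related protein that acts at the nuclear envelope, rose to a knockdown mean of 18.3 ± 2.35 CPM (SD, n = 3). Its control values were 2.20 and 4.24 CPM. The log2 fold change was 2.43 (edgeR adjusted p = 0.0149), with 2.10 without control replicate 1 and 3.03 without control replicate 2. The ESCRT-III subunit CHMP2B rose to a knockdown mean of 48.4 ± 2.92 CPM (SD, n = 3) over control values of 21.8 and 21.6 CPM, 1.16 on the log2 scale (edgeR adjusted p = 0.0183), with close controls like those of PDCD6IP. CHMP5, a regulator of ESCRT-III disassembly, rose by 1.21 on the log2 scale (edgeR adjusted p = 0.0219). CD81, a tetraspanin carried on exosomes whose exons overlap CD81-AS1, fell to a knockdown mean of 282 ± 17.1 CPM (SD, n = 3) under control values of 644 and 499 CPM, -1.02 on the log2 scale (edgeR adjusted p = 0.0234).

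Of 32 tested genes of heparan sulfate synthesis, its editing and the other core proteins, 6 rose and 1 fell. Over all tested genes, 11.2% were called higher and 11.4% lower. The list's median log2 fold change was 0.21 (0.31 without control replicate 1 and 0.40 without control replicate 2). The chain polymerase gene EXT2 rose to a knockdown mean of 29.5 ± 1.33 CPM (SD, n = 3) over control values of 6.37 and 12.7 CPM. Its log2 fold change was 1.59 (edgeR adjusted p = 0.0233), with 1.21 without control replicate 1 and 2.20 without control replicate 2. FAM20B, the kinase of the linkage xylose, rose to a knockdown mean of 42.3 ± 1.58 CPM (SD, n = 3) over control values of 22.8 and 23.2 CPM, 0.88 on the log2 scale (edgeR adjusted p = 0.0281). The transporters of the sulfate donor into the Golgi both rose, SLC35B2 by 3.08 (edgeR adjusted p = 0.0309) and SLC35B3 by 1.36 (edgeR adjusted p = 0.0402). SLC35B2, whose exons overlap MIR4647, was at 2.94 and 0.344 CPM in the controls. The lower value, in control replicate 2, lay at the limit of 3 counts (0.346 CPM before TMM factors). The log2 fold change of SLC35B2 depended on which control was kept, with 5.02 without control replicate 1 and 1.98 without control replicate 2. SLC35B3 was at 1.02 without control replicate 1 and 1.95 without control replicate 2.

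Of 28 tested syndecan and syntenin partners and sheddases, 3 rose and 4 fell, with a median log2 fold change of -0.44 (-0.26 without control replicate 1 and -0.29 without control replicate 2). FZD7, a Frizzled receptor that syntenin binds, rose to a knockdown mean of 18.3 ± 3.45 CPM (SD, n = 3) over control values of 4.41 and 5.62 CPM, 1.84 on the log2 scale (edgeR adjusted p = 0.0172). EFNB1, an ephrin ligand with a PDZ-binding tail, rose by 1.02 (edgeR adjusted p = 0.0247). FN1, the fibronectin bound by syndecan chains, fell to a knockdown mean of 371 ± 59.4 CPM (SD, n = 3) under control values of 2388 and 883 CPM, -2.14 on the log2 scale (edgeR adjusted p = 0.0217, and -1.25 without control replicate 1). IGF1R, a growth factor receptor whose exons overlap IRAIN, fell by 1.28 on the log2 scale (edgeR adjusted p = 0.0308), with a value of -0.70 without control replicate 1.

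Of 39 tested genes for other RNA-binding proteins of mRNA 3' regions, 6 rose and 3 fell, with a median log2 fold change of -0.11 that was 0.04 without control replicate 1. ZFP36L2, which promotes decay of AU-rich mRNAs, rose to a knockdown mean of 65.5 ± 9.70 CPM (SD, n = 3) over control values of 16.7 and 21.6 CPM, 1.77 on the log2 scale (edgeR adjusted p = 0.0141). RBM38, a p53 target that binds U-rich elements, rose to a knockdown mean of 56.0 ± 8.77 CPM (SD, n = 3). Its control values were 2.45 and 9.06 CPM. The log2 fold change was 3.19 (edgeR adjusted p = 0.0162), with 2.63 without control replicate 1 and 4.50 without control replicate 2. ELAVL1, the stabilising protein HuR, rose by 1.57 (edgeR adjusted p = 0.0167) and SAMD4B by 1.51 (edgeR adjusted p = 0.0215). In all 4 lists called members were present in both directions.

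**Figure D4:**
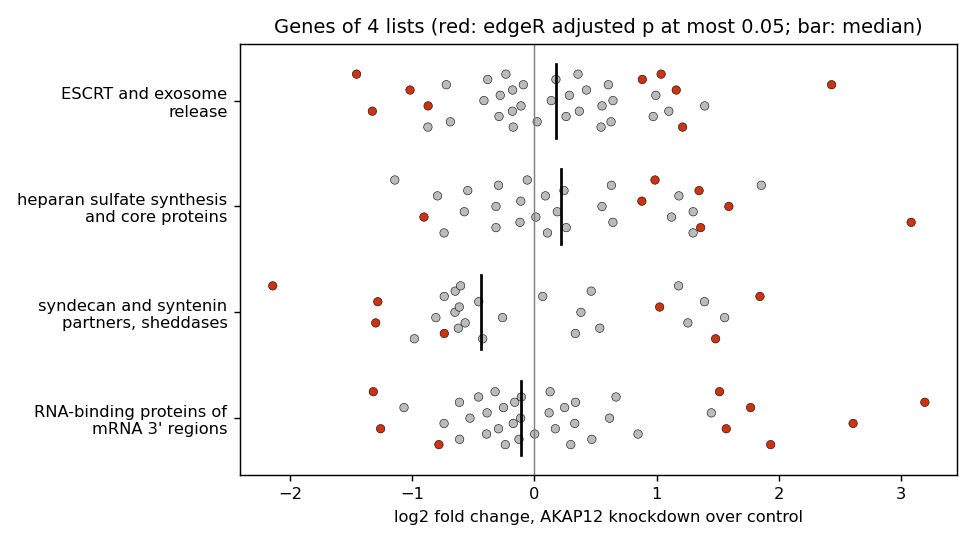
Log2 fold change, AKAP12 knockdown over control (horizontal axis), of each tested gene in the 4 pathway lists (rows); red points passed the edgeR threshold, grey points did not, and the black bar is the list's median. Red points lie on both sides of 0 in every list, with medians from -0.44 to 0.21.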

How the data were processed

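The labels give 2 control and 3 AKAP12 knockdown libraries. They name no separate cultures, and p-values therefore reflect the spread among these libraries, which may be technical. The deposited counts are whole reads per gene over exons from featureCounts 1.6.2, which counted a read for every gene it overlapped and used no strand option, per the file headers. STAR 2.7, hg38 and DESeq2 1.22 appear in the submitters' processing notes. The authors' deposited table holds a log2 fold change with its standard error, a mean signal, a test statistic (a score) and p-values, per the file headers.

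Genes passing filterByExpr (minimum count 10) were scaled with TMM and tested two-sided with edgeR 4.0.16 (R 4.3.3), with Benjamini-Hochberg adjustment. The SE of a log2 fold change is its size over the root of the F statistic. Family shares were compared with exact two-sided permutation tests. A count of 0 allows 0.322 to 0.608 CPM of the total counts, before TMM factors, taking 3 counts as the limit.

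The 9 genes and the pathway lists were chosen with earlier results of these data known. The rule also named AKAP12, up to 4 called members per list with the smallest p, and the 3 genes (mean log2 CPM of at least 4) nearest in profile to RBMS1 and to SDCBP. BAZ2A, SDCBP2 and PDCD6IPP2 were chosen with their values in view. The comparison was repeated with DESeq2 1.42.0, limma-voom (limma 3.58.1), RLE factors, no composition factor, other low-count filters (none, or 5 CPM in 2 libraries), a replicate block, leaving out each library, and removing TERT and short RNA genes. GC offsets (loess span 0.2) were an alternative chosen after seeing the data. The scripts were tested on simulated data. There, edgeR called 58 of 99 genes changed 4-fold, 3 of 99 changed 2-fold and 9 of 14065 unchanged genes. Each simulated gene varied independently around means shared by both controls, so a control that differs across many genes was not simulated. Fewer genes were changed than were called in the real data. These counts are therefore not the power or error of the real comparison.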

Additional observations from a re-analysis of the deposited data

How the results depend on the processing

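The labels share replicate numbers 1 and 2 without saying what a number stands for. Deviations of same-numbered libraries correlated across genes at r = -0.05 and -0.08. With 2 controls both values rest on the difference between those controls, so they cannot decide whether a number marks a shared batch. With the replicate number as a block, 210 genes were called in place of 3282, SDCBP was at 1.603 (edgeR adjusted p = 0.0678), PDCD6IP at 0.98 (edgeR adjusted p = 0.174) and SDC3 at -0.16. Leaving out 1 library at a time, the count of called genes ran from 0 to 8811 and was 5658 without control replicate 1. Over these fits the log2 fold change ran from 1.47 to 1.66 for SDCBP, 0.99 to 1.12 for PDCD6IP, -0.16 to 0.48 for RBMS1, 0.72 to 1.04 for RBMS2, 0.12 to 0.48 for RBMS3, -0.93 to -0.44 for SDC1, -1.27 to -0.67 for SDC2, -0.20 to 0.25 for SDC3, 0.63 to 3.35 for SDC4 and -1.42 to -0.52 for AKAP12. The lowest and highest differences in share were -0.585 and 0.242 points for RBMS3 and -10.6 and 0.736 points for SDC3. A fit with 1 control takes its spread from the knockdown libraries, so the lone control is assumed to vary as they do.

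Among the other alternatives, RBMS2 passed the threshold at 1.06 with library size only, 0.83 with DESeq2, 0.90 without a filter and 0.85 with the stricter filter. SDC1 passed it at -0.75 with DESeq2 and -0.72 with the stricter filter. AKAP12 passed it at -1.09 with DESeq2, -0.98 with limma-voom, -0.996 without a filter, -1.06 with the stricter filter, -1.04 without TERT and short RNA genes and -1.17 with GC offsets. SDC3 changed sign, to -0.028 with RLE factors, -0.028 with DESeq2 and -0.0015 with the stricter filter. GC offsets turned RBMS1 to -0.15 and RBMS3 to -0.10, while SDCBP was at 1.27 (edgeR adjusted p = 0.0241) and PDCD6IP at 0.77 (edgeR adjusted p = 0.0440). The split of called genes was 1624 higher and 1658 lower, 1668 and 982 with library size only, and 1300 and 1962 with GC offsets. The cause of these differences was not tested. The stricter filter left no value for RBMS3 and SDC2, which had 12 to 40 reads per library.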
